A study of Homo sapiens with 8 samples.

Results

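The genes described here are 9 feedback inhibitors and early targets of the ERK branch of MAP kinase signalling: the phosphatase genes DUSP1, DUSP4, DUSP5 and DUSP6, the Sprouty genes SPRY2 and SPRY4, the Sprouty-related genes SPRED1 and SPRED2, and PHLDA1. They were chosen by gene symbol, and all 9 were found among the 28518 gene rows of the count table. RNA was measured in HaCaT, a spontaneously immortalised line of human keratinocytes, after knockout of CARD14, which codes for a scaffold of NF-kB signalling in epithelia. All 8 libraries share that knockout, and cells without plasmid were not analysed here. Cells in 10 cm dishes received 9 ug of a plasmid from which CARD14 and eGFP are made, joined by a self-cleaving peptide, and GFP-positive cells were sorted 24 h later. The CARD14 on the plasmid was the variant R820W, N737H or I593T, which the series calls hypomorphic, or wild-type (WT) CARD14. A library A and a library B were given for every construct. The series speaks of 2 experiments, and no label says that a letter stands for an experiment, so p-values measure only the spread between these libraries.

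In the ERK pathway, an activated growth factor receptor loads RAS with GTP, and RAS starts a chain of kinases, RAF, MEK and ERK. ERK then induces genes whose products switch the pathway off, which makes the RNA of these genes a common readout of ERK output. In keratinocytes the pathway is driven largely by the EGF receptor and its ligands. The series asked which pathways differ between cells with the hypomorphic variants and cells with WT CARD14.

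RefSeq promoter windows, each running from 250 bases before a gene's start to 50 bases after it, were matched for 7 of the 9 genes, all but DUSP4 and DUSP5. Those of DUSP1, DUSP6 and PHLDA1 are shown because these genes carry the contrasts described below: DUSP1 varied most between libraries, DUSP6 was the most abundant phosphatase gene and was lower in B than in A with every construct, and PHLDA1 was the most abundant member. Capitals mark matches to 4 motifs searched on both strands. The motifs were the core of the cyclic-AMP response element (TGACG), an ETS site (CCGGAAG), an AP-1 site (TGANTCA) and the CArG box that serum response factor binds. The sequences are given 5′ to 3′ along the gene's strand (minus in each case), on GRCh38.p14, which is a later build than the hg19 named for the counts.
DUSP1, chr5:172771146-172771445: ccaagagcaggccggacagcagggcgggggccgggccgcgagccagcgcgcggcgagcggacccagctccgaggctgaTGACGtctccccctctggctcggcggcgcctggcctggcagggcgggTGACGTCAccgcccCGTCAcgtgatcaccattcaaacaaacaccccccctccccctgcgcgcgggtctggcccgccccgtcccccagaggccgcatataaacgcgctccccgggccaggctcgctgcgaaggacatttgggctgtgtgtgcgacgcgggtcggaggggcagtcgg
DUSP6, chr12:89352452-89352751: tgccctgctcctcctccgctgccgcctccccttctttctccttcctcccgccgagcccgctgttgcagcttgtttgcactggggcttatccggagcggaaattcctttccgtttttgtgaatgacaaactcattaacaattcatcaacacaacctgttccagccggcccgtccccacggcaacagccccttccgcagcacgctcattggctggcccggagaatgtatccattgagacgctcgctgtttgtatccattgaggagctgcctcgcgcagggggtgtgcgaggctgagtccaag
PHLDA1, chr12:76031727-76032026: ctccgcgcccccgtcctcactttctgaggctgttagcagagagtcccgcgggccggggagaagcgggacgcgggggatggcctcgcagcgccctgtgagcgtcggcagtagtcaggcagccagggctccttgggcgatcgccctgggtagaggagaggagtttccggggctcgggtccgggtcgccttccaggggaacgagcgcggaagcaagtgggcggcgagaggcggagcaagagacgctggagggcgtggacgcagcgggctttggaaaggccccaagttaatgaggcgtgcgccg

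The DUSP1 window held 4 matches to TGACG, of which 2 overlap as the arms of a palindrome, and 0.313% of all 35116 windows held 4 or more. At least 1 match was present in 24.6% of all windows and in 4 of the 10 windows of the members, those of DUSP1, SPRY4, SPRY2 and SPRED2. The AP-1 letters occurred in 1 member window, of SPRED2, against 7.71% of all windows. The ETS and CArG letters occurred in 0 of the 10, against 10.3% and 1.29% of all windows. A match describes letters in a window and is not a bound site.

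The 8 libraries held 17892608 to 24629860 counts, and 14834 genes passed the filter on low counts, among them all 9 members. N737H replicate B stood apart, with any count in 21059 genes, against 17836 to 18855 in the other libraries. It also had the highest scaling factor, 1.08. The cause was not tested, and the N737H values below rest in part on that library. Levels are given in CPM, the usual scale on which a gene's reads are divided by the normalised library size. Keratinocyte markers summed to 2166 to 3191 CPM per library over 6 genes, among them KRT14. The fibroblast list summed to 0.458 to 1.63 CPM over 6 genes, the endothelial list to 1.09 to 2.85 over 4, the melanocyte list to 8.78 to 14.1 over 5 with TYR at 0, and the immune list to 51.0 to 91.9 over 6, of which CD68 gave a mean of 63.7 and PTPRC 0.0653. CARD14 stood at 1410 CPM in B and 1190 in A with R820W, at 1005 and 444 with N737H, at 1394 and 499.6 with I593T, and at 978 and 1127 with WT. The counts do not separate plasmid from endogenous transcripts.

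Per kilobase of annotated exon, PHLDA1 and DUSP6 stood far above the other 7 members. PHLDA1 codes for a pleckstrin homology-like domain protein whose RNA responds to growth factors, and DUSP6 for a cytoplasmic phosphatase that acts mainly on ERK. Their mean levels over the 8 libraries were 52.1 and 50.8 CPM per kb, with overlapping ranges. DUSP1 (5.54 CPM per kb), DUSP4 (4.50) and SPRED2 (3.64) came next and overlapped one another. SPRED1 (1.89), SPRY2 (1.31), SPRY4 (1.26) and DUSP5 (0.902) followed, and the ranges of neighbours in that order overlapped. SPRED1, at no more than 2.34 CPM per kb, lay below every library of DUSP1, DUSP4 and SPRED2. DUSP5 was the thinnest measurement, with 19 to 74 reads per library.

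**Figure D1:**
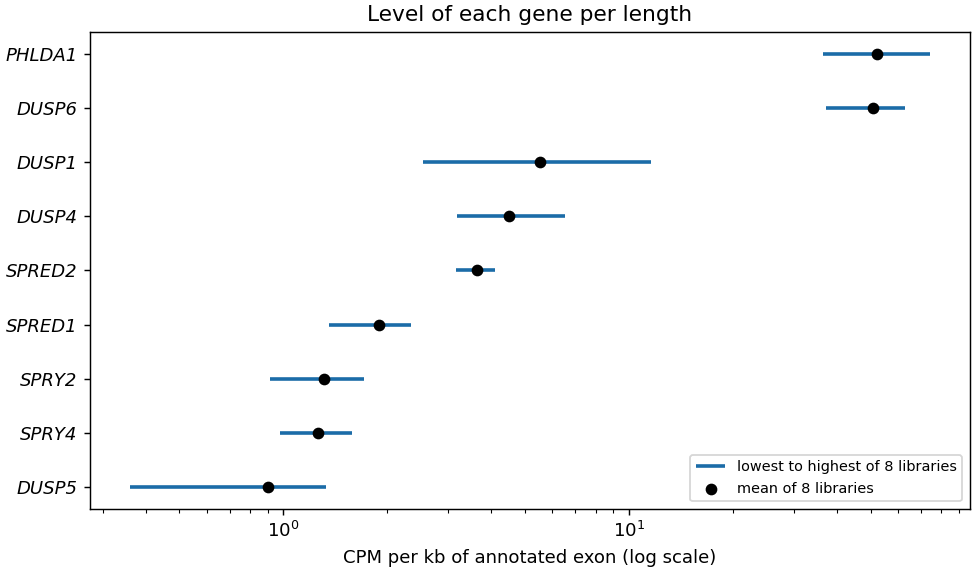
Levels of the 9 genes in CPM per kilobase of annotated exon on a log axis: dots are means over 8 libraries and bars run from the lowest to the highest library. PHLDA1 and DUSP6 average 52.1 and 50.8 CPM per kb, and the other 7 genes average 5.54 or less.

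DUSP1, an immediate-early phosphatase of the nucleus that acts on p38 and JNK as well as ERK, was the most variable member. It stood at 13.5 CPM in B and 9.11 in A with R820W, 15.1 and 7.13 with N737H, 23.3 and 7.73 with I593T, and 5.12 and 8.52 with WT. The A libraries lay within a narrow band of 7.13 to 9.11 CPM, while in B each variant library exceeded the WT library. Over both libraries the level averaged 11.3 ± 3.13 CPM in R820W cells, 11.1 ± 5.61 in N737H cells and 15.5 ± 11.0 in I593T cells, against 6.82 ± 2.40 in WT cells (SD, n = 2 each). The log2 fold changes against WT were 0.73 ± 0.56 (SE), 0.70 ± 0.56 and 1.18 ± 0.57, and none passed (edgeR adjusted p = 1.00 in each). Within the letters the difference from WT with I593T was 2.17 in B and -0.14 in A, and without I593T replicate B the log2 fold change was 0.18. With N737H the differences were 1.54 in B and -0.25 in A, and the log2 fold change was 0.09 without N737H replicate B. With R820W they were 1.39 and 0.10, and the log2 fold change was 1.18 without WT replicate A, but 0.40 when the B library of WT was left out. Only R820W had both libraries above both WT libraries, as 12.6% of all genes tested had. In bulk RNA, fewer cells that express a gene and less RNA per cell cannot be told apart.

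DUSP4 codes for a nuclear phosphatase that is itself an ERK target. Its level was 33.2 CPM in B and 31.9 in A with R820W, 28.8 and 23.1 with N737H, 47.4 and 29.5 with I593T, and 31.4 and 35.5 with WT. Both N737H libraries lay below both WT libraries, while the I593T libraries lay above and below WT. The log2 fold change was -0.04 ± 0.24 (SE) for R820W, -0.37 ± 0.25 for N737H and 0.20 ± 0.24 for I593T. The 95% intervals were -0.60 to 0.52, -0.93 to 0.20 and -0.36 to 0.76. For N737H the log2 fold change was -0.22 without WT replicate A, and for I593T it was -0.19 without I593T replicate B.

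DUSP5, a nuclear phosphatase that acts on ERK alone, was lowest with N737H. It was at 3.15 CPM in B and 2.35 in A with R820W, 1.82 and 0.921 with N737H, 3.31 and 1.57 with I593T, and 1.93 and 3.39 with WT. The lowest value rested on 19 reads, with an exact Poisson interval of 0.555 to 1.44 CPM that covers counting error only. Both N737H libraries were below both WT libraries, by 0.08 on the log2 scale in B and by 1.78 in A. The log2 fold change of -0.96 ± 0.54 (SE) with N737H did not pass (edgeR adjusted p = 1.00), and it was -0.44 without WT replicate A and -1.50 without N737H replicate B. For R820W and I593T it was 0.04 ± 0.52 and -0.13 ± 0.52.

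DUSP6 was at 244.9 CPM in B and 285.5 in A with R820W, 168.6 and 222.6 with N737H, 202.9 and 236.0 with I593T, and 214.3 and 273.0 with WT. In both letters R820W gave the highest value and N737H the lowest. The ranges of N737H and WT overlapped across letters, and within letters N737H was lower than WT by 0.35 in B and by 0.29 in A on the log2 scale. The log2 fold change was 0.12 ± 0.20 (SE) for R820W, -0.32 ± 0.20 for N737H and -0.15 ± 0.20 for I593T, with a 95% interval of -0.78 to 0.15 for N737H. For N737H it was -0.55 without N737H replicate A and -0.08 without WT replicate A.

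The Sprouty genes code for inhibitors that act between the receptor and RAF, and with N737H the values of the pair lay on opposite sides of WT. SPRY2 was at 2.77 CPM in B and 3.26 in A with R820W, 4.72 and 5.19 with N737H, 4.35 and 4.31 with I593T, and 4.39 and 2.88 with WT. N737H gave the highest SPRY2 level in each letter, above WT by 0.10 in B and by 0.83 in A on the log2 scale. In B the exact Poisson intervals of N737H and WT overlapped (3.83 to 5.77 and 3.54 to 5.39 CPM), and in A they did not. R820W gave the lowest SPRY2 level in B. SPRY4 was at 5.49 in B and 7.46 in A with R820W, 5.31 and 4.85 with N737H, 5.79 and 7.13 with I593T, and 6.08 and 7.88 with WT. WT gave the highest SPRY4 level in each letter, and N737H the lowest. Against WT, N737H had a log2 fold change of 0.45 ± 0.31 (SE) for SPRY2 and -0.46 ± 0.28 for SPRY4, and neither passed (edgeR adjusted p = 1.00 for both). Without WT replicate A they were 0.23 and -0.21, and without WT replicate B 0.77 and -0.64.

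The Spred genes code for proteins that hold RAS back together with neurofibromin. SPRED2 had the narrowest range of the 9 members, from 13.1 to 17.1 CPM over the 8 libraries (1.30-fold). SPRED1 ran from 10.5 to 18.2 CPM. The log2 fold changes of SPRED1 against WT ran from 0.07 with R820W to 0.19 with I593T, each with an SE of 0.28. For SPRED2 they were -0.22 ± 0.20 (SE) with R820W, 0.00 ± 0.20 with N737H and -0.05 ± 0.20 with I593T. Both R820W libraries of SPRED2 lay below both WT libraries, and the log2 fold change was -0.12 without WT replicate A.

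PHLDA1 was at 397 CPM in B and 340 in A with R820W, 452 and 295 with N737H, 598 and 359 with I593T, and 408 and 514 with WT. In A every variant library was below WT, and in B only that of R820W was. R820W thus had both libraries below both WT libraries, with a log2 fold change of -0.32 ± 0.29 (SE) that was -0.11 without WT replicate A. With N737H it was -0.30 ± 0.29, from 0.15 in B and -0.80 in A, and -0.05 without N737H replicate A. With I593T it was 0.05 ± 0.29, from 0.55 in B and -0.52 in A.

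**Figure D2:**
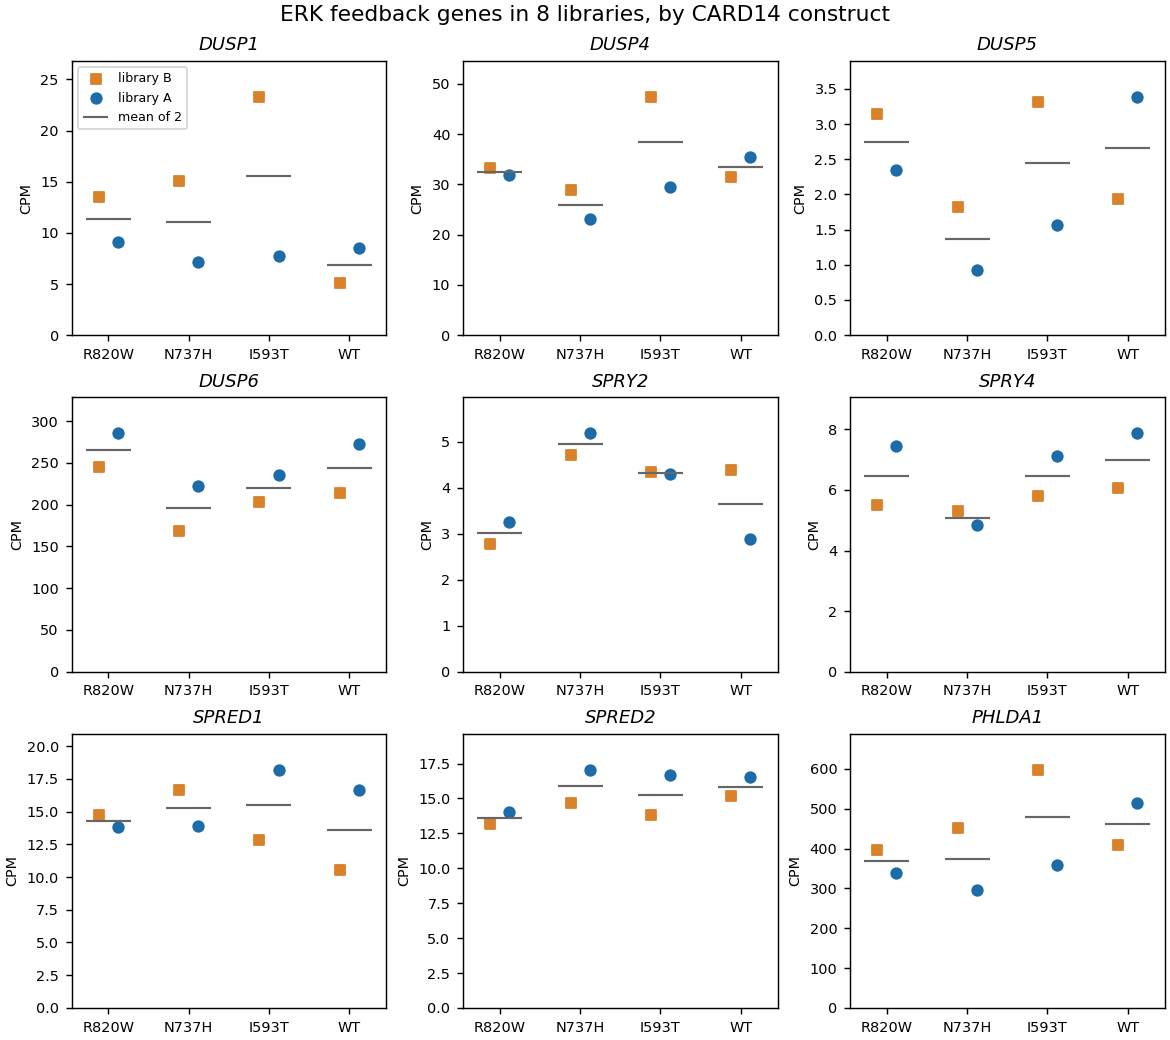
CPM of each gene in the 8 libraries, by CARD14 construct: squares are B libraries, circles A libraries, and lines the mean of 2. The DUSP1 level reaches 23.3 CPM in the I593T B library and is 5.12 CPM in the WT B library, while its A libraries lie between 7.13 and 9.11 CPM.

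Over all 9 genes, no member passed the test with any variant, and neither did any other gene tested. With R820W, 4 members had higher and 5 had lower values than WT, with 0 called (background 0% of 14834 genes). Their median log2 fold change was -0.04, beside -0.01 over all genes. With N737H the split was again 4 and 5, with 0 called (0%), and the median was -0.30 beside -0.03. With I593T 5 were higher and 4 lower, with 0 called (0%), and the median was 0.05 beside -0.02. Unadjusted p-values under 0.05 were found for 0 members in each of the 3 comparisons, and for 1.04%, 2.44% and 1.43% of all genes with R820W, N737H and I593T. These shares come from the fit without the letter as a term, which leaves variation between the letters in the error. The smallest unadjusted p of a member was 0.0701, for DUSP1 with I593T. DESeq2 and limma voom also called 0 members. The 3 comparisons share the WT libraries, so their directions are not independent.

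**Figure D3:**
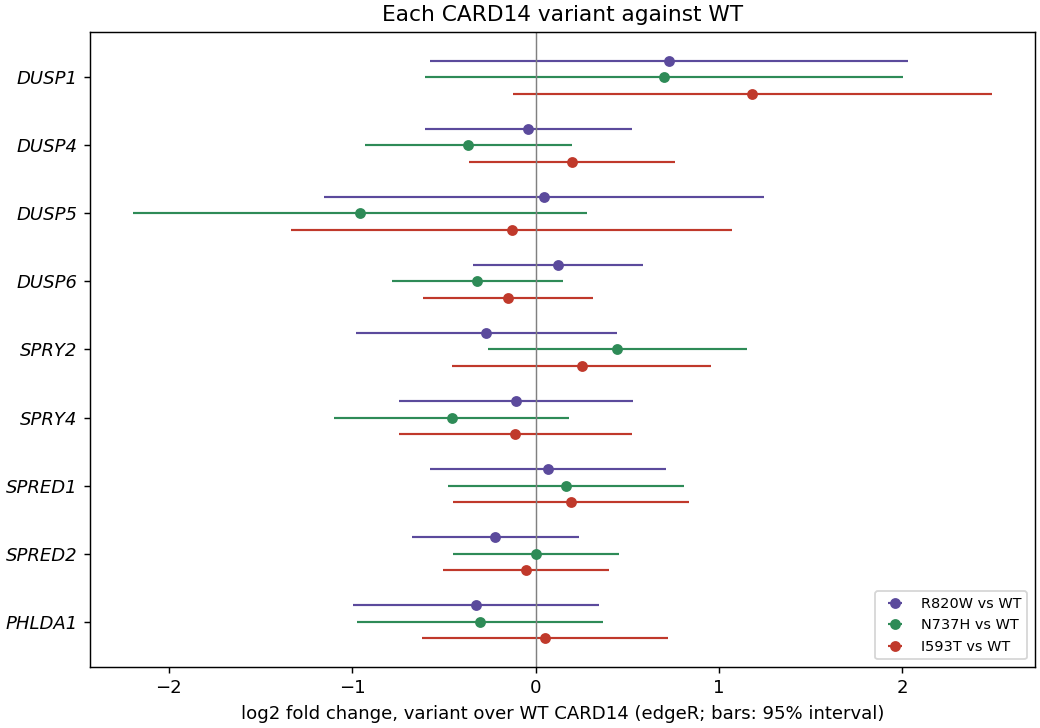
Log2 fold change of each gene with each variant over WT CARD14 from edgeR, with 95% intervals. Every interval includes 0, from the widest of DUSP1 and DUSP5 to the narrowest of SPRED2.

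Some members had groups that did not overlap. With N737H, DUSP4, DUSP5 and SPRY4 had both libraries below both WT libraries (3 of 9 members, against 12.4% of all genes), and SPRY2 had both above (1 of 9, against 9.92%). With R820W, SPRED2 and PHLDA1 were below (2 of 9, against 12.8%) and DUSP1 above (1 of 9, against 12.6%). With I593T there were 0 of 9 in either direction, against 11% of all genes below and 9.61% above. When the 3 variants were averaged and set against WT, 3 members were higher and 6 lower, with 0 called (0%). Its largest value was that of DUSP1, at 0.87 ± 0.48 (SE), with differences of 1.70 in B and -0.10 in A. For that mean, 0 of 9 members had all 6 variant libraries above or below both WT libraries, against 2.47% of all genes above and 3.13% below. The sign of the difference from WT was opposite in B and A for 4 members with R820W (against 52.5% of all genes), 4 with N737H (60.7%), 6 with I593T (52.7%) and 6 for the mean (57.9%).

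The variants were also compared with one another. DUSP6 had a log2 fold change of 0.44 ± 0.20 (SE) with R820W over N737H, and DUSP5 one of 1.00 ± 0.54. Both moved when 1 library was left out: without N737H replicate B, DUSP6 was at 0.21 and DUSP5 at 1.53, and without its replicate A they were at 0.67 and 0.60. DUSP1 was at 0.03 ± 0.56 and PHLDA1 at -0.02 ± 0.29 between these variants. SPRY2 was at -0.71 ± 0.31, with -0.75 in B and -0.66 in A, and had the smallest unadjusted p (0.0489, edgeR adjusted p = 1.00). DUSP4, DUSP5, DUSP6 and SPRY4 had both R820W libraries above both N737H libraries (4 of 9 members, against 15.2% of all genes), and SPRY2 and SPRED2 both below (2 of 9, against 13.1%). With N737H over I593T, DUSP4 was at -0.56 ± 0.25, with both N737H libraries below both I593T libraries. It was at -0.19 without I593T replicate B and -0.88 without I593T replicate A. SPRY4 was also below in both (2 of 9, against 10.7%) and SPRY2 above (1 of 9, against 9.65%). With R820W over I593T, DUSP6 was above in both libraries (1 of 9, against 14.9%) with 0.27 ± 0.20 (0.15 without R820W replicate A), and SPRY2 below (1 of 9, against 13.2%) with -0.52 ± 0.31. No member was called in these 3 comparisons (0% of all genes in each). Unadjusted p-values under 0.05 were found for 1 of 9 members with R820W over N737H (1.63% of all genes), 0 with R820W over I593T (1.23%) and 0 with N737H over I593T (1.14%). The sign was opposite in B and A for 2 members (47.9% of all genes), 5 members (45.8%) and 1 member (52.8%) in the same order.

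The members differed in how the B libraries compared with the A libraries. DUSP1, DUSP4, DUSP5 and PHLDA1 were each higher in B than in A with all 3 variants and lower in B than in A with WT (4 of 9 members, against 8.56% of all genes tested). For DUSP1 the B library held 1.48 times the A level with R820W, 2.10 times with N737H, 2.99 times with I593T and 0.605 times with WT. For PHLDA1 the ratios were 1.17, 1.54, 1.67 and 0.795, for DUSP5 1.33, 1.89, 2.05 and 0.581, and for DUSP4 1.04, 1.25, 1.61 and 0.885. The levels of DUSP4 with R820W were close, at 33.2 CPM in B (611 reads) and 31.9 in A (775 reads), so that direction is weak. DUSP5 with R820W rested on 58 reads in B and 57 in A. The exact Poisson intervals of DUSP5 in B and A overlapped with R820W (2.39 to 4.07 and 1.78 to 3.04 CPM) and with N737H. They did not overlap with I593T or WT. The 4 genes were read in the same libraries, so their directions are not independent. In each of the 4 genes the ratio was largest with I593T, then N737H, then R820W, and lowest with WT. This order together with the directions above was found in 2.57% of all genes (this pattern was described after the values were seen). CARD14 itself had ratios of 1.19, 2.26, 2.79 and 0.868 in the same order, and its part in the result was not tested. DUSP6 and SPRED2 were instead lower in B with all 4 constructs (2 of 9 members, against 17.8%).

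**Figure D4:**
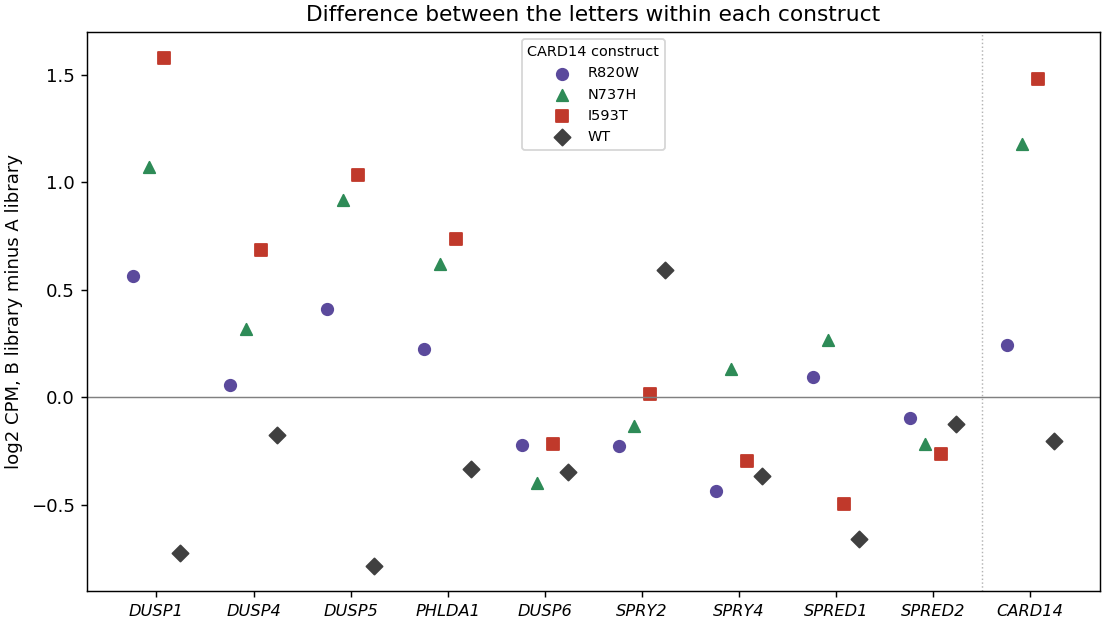
Difference of log2 CPM between the B and the A library of each construct, for the 9 genes and CARD14. DUSP1, DUSP4, DUSP5 and PHLDA1 lie above 0 with each variant and below 0 with WT, as CARD14 does, and DUSP6 and SPRED2 lie below 0 throughout.

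In a fit with construct and letter as terms, 0 of the 9 members differed between B and A past the threshold, against 3.24% of all genes. DUSP6 came closest, at 208 ± 31.5 CPM in B and 254 ± 29.8 in A (SD, n = 4 each), with a log2 fold change of -0.30 ± 0.08 (SE) and lower values in B with 4 of 4 constructs (edgeR adjusted p = 0.0937, and DESeq2 adjusted p = 0.0422). DUSP1 averaged 14.3 ± 7.45 CPM in B and 8.12 ± 0.869 in A, with a log2 fold change of 0.66 ± 0.35. Without WT replicate A it was 1.08 (edgeR adjusted p = 0.0156), and without WT replicate B also 1.08 (0.0164), since either step takes WT out of the comparison of letters. PHLDA1, at 0.31 ± 0.17, was likewise at 0.52 without WT replicate A (edgeR adjusted p = 0.0249) or WT replicate B (0.0278). A term for the variants' letter difference against that of WT, added after the values were seen, gave 1.82 ± 0.42 for DUSP1 (edgeR adjusted p = 0.107), 0.86 ± 0.22 for PHLDA1 (0.129), 1.62 ± 0.58 for DUSP5 (0.211) and 0.53 ± 0.27 for DUSP4 (0.349), with 0.195% of all genes past the threshold.

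The genes whose profiles were most like the members' were found by the root-mean-square difference of centred log2 CPM over the 8 libraries, among 9577 other genes with a mean of at least 5 CPM. The nearest to DUSP1 was IER2, another immediate-early gene, at 0.140, where DUSP1 itself departs from a flat line by 0.647. RPUSD2 was almost as near, at 0.146, so the ranking does not single out IER2. IER2 stood at 256 CPM in B and 95.2 in A with I593T, against 65.1 and 113.7 with WT. The nearest to DUSP5 was CARD14, at 0.268, where DUSP5 departs from a flat line by 0.574. The nearest to DUSP4 was SLC38A7 (0.0802) and to PHLDA1 UHRF1 (0.104). Among the members, DUSP4 and PHLDA1 were closest to each other (0.160), where they depart from a flat line by 0.274 and 0.309. DUSP6 and SPRY4 were also closest to each other (0.181). These 2 depart from a flat line by only 0.227 and 0.233, so their match is weak. DUSP5 and SPRY2 were the farthest apart (0.833), and the member farthest from DUSP1 was DUSP6 (0.761).

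Genes around the members in the pathway did not pass the test with any variant either. As background, 48.0%, 45.8% and 45.6% of all genes were higher with R820W, N737H and I593T, with medians of -0.01, -0.03 and -0.02. Of 24 components of the ERK cascade, from receptor to kinase, 13 were higher and 11 lower with R820W, 7 and 17 with N737H, and 10 and 14 with I593T, with medians of 0.01, -0.13 and -0.06. GRB2 and NRAS, the most abundant of them, were at 0.01 ± 0.16 (SE) and -0.19 ± 0.25 with N737H. Among the EGF receptor ligands, 5 of the 6 tested had lower values with each variant, though not the same 5. The higher ligand was BTC with R820W (0.24), and EPGN with N737H (0.54) and with I593T (0.29). The medians of the 6 were -0.26, -0.58 and -0.28 in the order R820W, N737H, I593T. The 3 comparisons share the WT libraries, so their directions are not independent. TGFA and HBEGF, the most abundant ligands, were at -0.44 ± 0.37 and -1.12 ± 0.39 with N737H (edgeR adjusted p = 1.00 for both). Of 17 other ERK feedback and early target genes tested, 14 were higher with R820W, 8 with N737H and 13 with I593T, with medians of 0.12, -0.04 and 0.30. CCND1 (cyclin D1) and FOSL1, an AP-1 subunit, led that list in level. CCND1 had log2 fold changes of 0.17 ± 0.36 in R820W cells, 0.22 ± 0.36 in N737H cells and 0.67 ± 0.36 in I593T cells, and FOSL1 of -0.23 ± 0.47, -0.10 ± 0.47 and 0.53 ± 0.47 in the same order. Of 6 other MAPK phosphatases tested, 2, 3 and 4 were higher with R820W, N737H and I593T, with medians of -0.04, -0.02 and 0.03. DUSP10 and DUSP14 were the most abundant, at 0.08 ± 0.14 and -0.23 ± 0.30 with N737H. Of 4 other Sprouty, Spred and PHLDA genes tested, 2, 2 and 3 were higher in that order, with medians of -0.03, 0.28 and 0.35. PHLDA2 and PHLDA3 led in level, at -0.09 ± 0.29 and -0.36 ± 0.29 with N737H. These lists were chosen with earlier results of these data known.

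Between B and A, 4 of the 57 genes tested in these lists passed, against 3.24% of all genes. NF1, which codes for the RAS-inactivating protein neurofibromin, was higher in B at 0.71 ± 0.13 (SE, edgeR adjusted p = 0.0404). NRAS (-0.42 ± 0.08, 0.0483), DUSP14 (-0.52 ± 0.09, 0.0388) and ETV5, an ETS factor that ERK signalling induces (-1.11 ± 0.14, 0.0151), were lower in B. MYC, the gene of the series title, averaged 746 ± 61.0 CPM in R820W cells, 690 ± 69.8 in N737H cells and 779 ± 53.2 in I593T cells, against 743 ± 1.94 with WT (SD, n = 2 each).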

How the data were processed

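RNA of GFP-sorted, CARD14-knockout HaCaT cells was sequenced from libraries made with a low-input NEBNext kit, per the labels' protocols. What the authors deposited is a table of raw counts, whole numbers by gene symbol. In the submitters' processing notes stand hg19, FastQC, MACS2 and DESeq2, without roles. Aligner, counter and annotation, and whether strand was used, are not given in the sources used. GENCODE v29 places unnamed antisense genes across DUSP6 and PHLDA1, so without strand their reads cannot be told apart.

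Counts were filtered (filterByExpr), scaled by TMM and tested with edgeR 4.0.16 (quasi-likelihood, R 4.3.3) on all 8 libraries with group means, at 4 residual degrees of freedom. P-values are two-sided and Benjamini-Hochberg adjusted over 14834 genes, with a threshold of 0.05. B was compared with A with the construct as a term. SEs come from the log2 fold change and its F statistic. Within-letter values subtract log2 CPM (prior count 2). Exon lengths are from GENCODE v29 (lengths only) and promoters from RefSeq. The procedure was run on simulated counts with known changes. These had less spread than the real counts and no letter effect, so the run does not show what could be detected here. Libraries differed by at least 6.30 chi-square units per gene, so none was taken as a repeat of another. Alternatives were RLE scaling, no filter, a filter of 10 counts in 6 libraries, DESeq2 1.42.0, limma voom (limma 3.58.1), the replicate block, only the groups compared, CARD14 removed, and each library left out.

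All 9 members are named. For the pathway lists the 2 most abundant genes are named, with up to 4 that pass the test. The likeness rule is given beside its result. The members, lists and rules were chosen with earlier results of these data known.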

Additional observations from a re-analysis of the deposited data

Results flagged for a closer look

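The letter difference (B minus A, log2 CPM) had opposite directions with the variants and with WT for 4 genes: every variant was higher in B and WT was lower. The mean of the variants minus WT was 1.80 for DUSP1, 1.57 for DUSP5, 0.86 for PHLDA1 and 0.53 for DUSP4. A term for this difference, added after the values were seen, did not pass for any of the 4 (edgeR adjusted p = 0.107, 0.211, 0.129 and 0.349). It had 2 residual degrees of freedom.

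In 18 groups of 4 libraries with the same letter, 2 had a library that stood apart, where chance marks about 1 group in 20. For SPRY2 in the B libraries this was R820W, whose gap to the next library took 0.846 of the range. For SPRED2 in the A libraries it was again R820W, with 0.835.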

How the results depend on the processing

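Of 72 log2 fold changes (9 genes, 8 comparisons), 1134 values under alternatives were computed. Of these 68 changed sign, 57 of them on leaving out 1 library, and 5 passed the threshold, all of B against A. In comparisons of constructs the smallest adjusted p of a member was 0.513, so 0 members were called under any alternative run. For B against A, DESeq2 called 1 member (DUSP6), and leaving out 1 library called 0 to 2 (2 without WT replicate A or B).

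Counts of all genes called depended on the processing. With no filter on low counts they were 2 with R820W, 2 with N737H, 8 with I593T, 2 for the mean of the variants, 8 for R820W over N737H, 10 for R820W over I593T, 11 for N737H over I593T and 760 for B over A. DESeq2 called 3 with I593T, 2 for R820W over N737H, 1 for N737H over I593T and 1287 for B over A. Leaving out 1 library gave 0 to 3 with I593T, for R820W over I593T and for N737H over I593T, 0 to 1 for the mean of the variants, and 0 (without R820W replicate A) to 1069 (without WT replicate A) for B over A. The causes were not tested.

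Libraries with the same letter deviated together in 5 of 6 pairs of constructs (correlations of 0.312 to 0.410) and not in N737H and WT (0.024). The letters carry shared variation: with the letter as a term, the common coefficient of variation was 19.0%, against 26.2% without it. The labels state no blocked design, so the block was run as an alternative. With the letter as a replicate block, 1 gene was called for R820W over N737H and 0 in the other comparisons of constructs, and DUSP1 with I593T was at 0.96. Genes with an unadjusted edgeR p under 0.05 against WT then numbered 384 with R820W, 670 with N737H and 500 with I593T. Without the block they numbered 154, 362 and 212. B over A with no replicate block (no construct term) called 1324 genes. With 2 libraries per construct, wide intervals limit every statement on DUSP1 and on DUSP5, which had few reads.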
